A study of Mus musculus with 21 samples.

Results

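Mesothelium-like cells of the mouse colon were taken from 1 droplet library by their counts of Msln, Upk3b, Lrrn4 and Upk1b. A cell barcode needed at least 1 UMI (unique molecular identifier, a tag that counts 1 captured transcript) in at least 2 of these genes. Barcodes were kept when they held 500 genes or more and no more than 10% of their UMIs came from mitochondrial genes, and of the 11376 kept 69 met this rule and are called members below. They made up 0.607% of the kept barcodes (exact 95% binomial interval 0.472% to 0.767%) and 1.03% of the UMIs. The members were thus chosen by the UMI counts of the 4 gate genes, whose levels are a description only. All comparisons are between barcodes of this single library, so no p-value could be made, and every interval covers counting error only.

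The study concerned stromal cells of the colon that depend on Map3k2, a kinase gene, and how they respond to injury by dextran sulfate sodium (DSS), a detergent that damages the colon epithelium. The single-cell library came from the colon of wild-type female C57BL/6 mice of 12 weeks given 2% DSS and sampled at D3, and its label describes the cells as gp38+CD90+ (products of Pdpn and Thy1). The number of animals is not given in the sources used here, and the protocol names lamina propria as the source of the suspension. ATAC-seq, which reads accessible chromatin, covered 4 populations sorted from male C57BL/6 mice of 12 weeks as gp38-positive cells without CD45, Epcam and CD31. Their labels are CD34 SP, CD138 (CD34-CD138+), Myofibroblast and MRISC, the stromal cells regulated by Map3k2, with 2 libraries but 1 peak list each. None of the 4 was sorted as mesothelium, and the bulk colon RNA libraries were not analysed here.

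The mesothelium is the single layer of flat cells that covers the outer, serosal face of the gut and the wall of the body cavity. It arises from mesoderm yet builds keratin filaments, cell junctions and microvilli, and it secretes a lubricating, glycoprotein-rich fluid. Mesothelial cells also carry gp38 (podoplanin). How the members came into this library was not tested.

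The 69 members held a median of 10751 UMIs (2117 to 22793) and 3288 genes, against 6046 UMIs and 2286 genes in the 11307 other kept barcodes. When each barcode was thinned at random to 3000 UMIs, which left 67 members and 10573 others, the medians were 1440 and 1424 genes. Mitochondrial UMIs were 1.23% of the total in the median member and 1.34% in the median other barcode. Of the members, 26 lay above the 95th percentile of depth of all kept barcodes (11586 UMIs), and no barcode was removed as a doublet (2 cells in 1 droplet). Their share in the results is given with the values below, and whether doublets add to them was not tested. Free RNA was read from 546978 empty droplets of 1 to 100 UMIs.

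Counts of the gate genes follow from the rule and are a description only. All 4 gate genes were detected in 61 members (88.4%), 3 in 3 members and 2 in 5 members, while 240 barcodes just outside the rule had exactly 1 gate gene and 11067 had none. Of the 5 members just inside, 3 were shallow, with 2117, 2932 and 3638 UMIs. Msln had a UMI in 69 members, Upk3b in 68, Lrrn4 in 64 and Upk1b in 62. The label was checked on 20 further mesothelial markers that the gate did not use. Members held 6 to 19 of them with a median of 16, and 68 of 69 held at least 11. No other barcode reached 11. The most was 10 among those with no gate gene and 9 among the 240 with 1, whose median depth was 6647.5 UMIs, and the median was 2 in both. Clustering without the gate genes placed all 69 members in 1 of 11 clusters. That cluster held 20 more barcodes with a median of 2510.5 UMIs, 0 to 6 of the markers and leading genes such as Gfra3, Gpr37l1 and S100b, which are known from glia. Among the members, 1 (9163 UMIs, 13 of the 20 markers) carried 3 of 6 enteric glia markers.

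**Figure D1:**
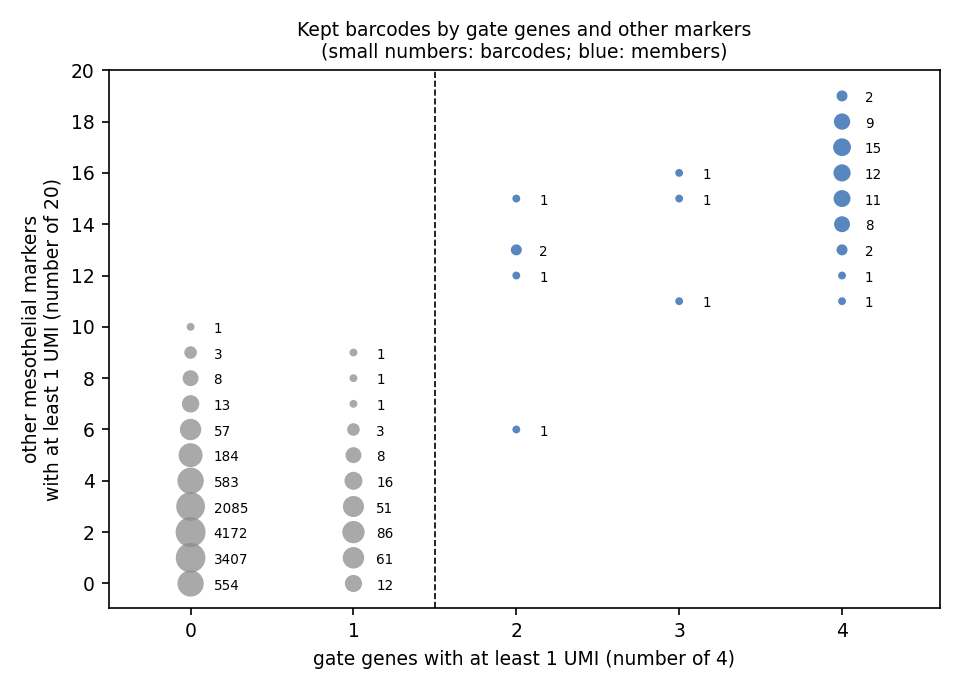
Kept barcodes by the number of gate genes with at least 1 UMI (x axis, of 4) and of other mesothelial markers with at least 1 UMI (y axis, of 20), with circle size and number giving the barcodes at each point and members in blue. Members had up to 19 markers, 68 of 69 had at least 11, and the most in any grey point was 10.

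No member held 3 markers of immune, T and innate lymphoid, B and plasma, macrophage and monocyte, neutrophil, pericyte, vascular or lymphatic endothelial or colon epithelial cells. Ptprc, the gene of CD45, was at 0 UMIs in all 69 members, and so were the macrophage genes Adgre1 and C1qb. The 6 macrophage and monocyte markers together held 22 UMIs in the members, at a summed 29.4 against 37.4 CPM in the others. None of the 6 was seen in 49 members. Fibroblast markers were present: 68 of 69 members held at least 4 of 6, as did 11170 of the 11307 others. By pooled level, with the 2-fold rule given below, 5 of the 6 were lower in the members and Dcn was higher, and the median log2 ratio was -1.15. Their summed level, most of it Dcn, ranged from 8499 to 37770 CPM (UMIs per 1000000 UMIs) over the members, with a median of 20502, against a median of 17493 in the others. Of 7 compared myofibroblast and smooth muscle markers 5 were lower and 0 higher, with a median log2 ratio of -2.00 and a pooled sum of 771 against 3027 CPM. At least 3 of the 8 were seen in 28 members, and the median summed level per barcode was 371 CPM against 354 CPM. A single member of 22021 UMIs held 7 of the 8. A pair of genes of other lists were higher in the members without the rest of their list, namely the chloride channel gene Ano1 (100.2 against 1.25 CPM) and the junction gene Esam (130 against 11.4 CPM).

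Levels below are pooled CPM, the UMIs of a gene summed over a group and divided by all UMIs of that group. A gene was compared when the mean of the members' and the others' CPM was at least 10, and it was called higher at a ratio of at least 2 and lower at a ratio of at most 0.5. Of 8441 genes, 867 (10.3%) were higher in the members and 943 (11.2%) lower, and the median log2 ratio was -0.04. At least 10-fold higher were 257 genes, at least 100-fold higher 70, and at least 10-fold lower 30. For 71 genes more than 50% of all UMIs in the kept barcodes came from the 69 members.

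Of the 20 markers outside the gate, 17 were higher in members, against a background of 10.3%, with a median log2 ratio of 6.27 over the 19 compared. Slpi, which encodes an antibacterial protease inhibitor, reached 6860.4 CPM (6674 to 7051) against 10.99 CPM (10.2 to 11.8), a ratio of 624. Its level in single members ran from 0 to 31571 CPM with a median of 4193, and 67 of 69 members lay above the 95th percentile of the others (92.5 CPM). The simple-epithelial keratin gene Krt19 stood at 1687 CPM against 19.2. All 69 members had Krt19 UMIs, at 45.4 to 4250 CPM. The 95th percentile of the others was 0, but their highest barcode was at 6263 CPM. A cluster of 24 other barcodes stood at 1665 CPM, near the level of the members. The keratin genes Krt7, Krt18 and Krt8 were 259-fold, 148-fold and 24.6-fold higher. Bnc1, the gene of the zinc finger factor basonuclin 1, had 46 UMIs in the members and 1 UMI in all other barcodes, a ratio of 4435 with an interval of 757 to 178914. Gpm6a, a membrane glycoprotein gene, had 444 against 28 UMIs and was found in 66 members.

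Wt1, which encodes a zinc finger factor of embryonic and adult mesothelium, was at 442 CPM (396 to 492) against 10.3 CPM (9.58 to 11.1). It was detected in 97.1% of members and 2.55% of others, and after thinning in 70.1% and 1.68%. Igfbp6, the gene of a binding protein for insulin-like growth factors, was at 4459 against 214 CPM, with every member above the 95th percentile of the others (1064 CPM). Cxadr (381-fold), Cldn15 (54.0-fold), Nkain4 (59.9-fold), Ildr2 (77.0-fold), Muc16 (887-fold, 46 against 5 UMIs) and Pkhd1l1 (1221-fold, 38 against 3 UMIs, interval 387 to 6183) were higher as well. Aldh1a2, a retinaldehyde dehydrogenase gene, was 10.6-fold higher. Aldh1a1 and Efemp1 missed the size rule at 1.81-fold and 1.16-fold. Calb2, whose product calretinin marks human mesothelium, had 0 UMIs in the members. In empty droplets Slpi stood at 75.4, Krt19 at 53.9 and Wt1 at 16.7 CPM, each far under its level in the members.

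**Figure D2:**
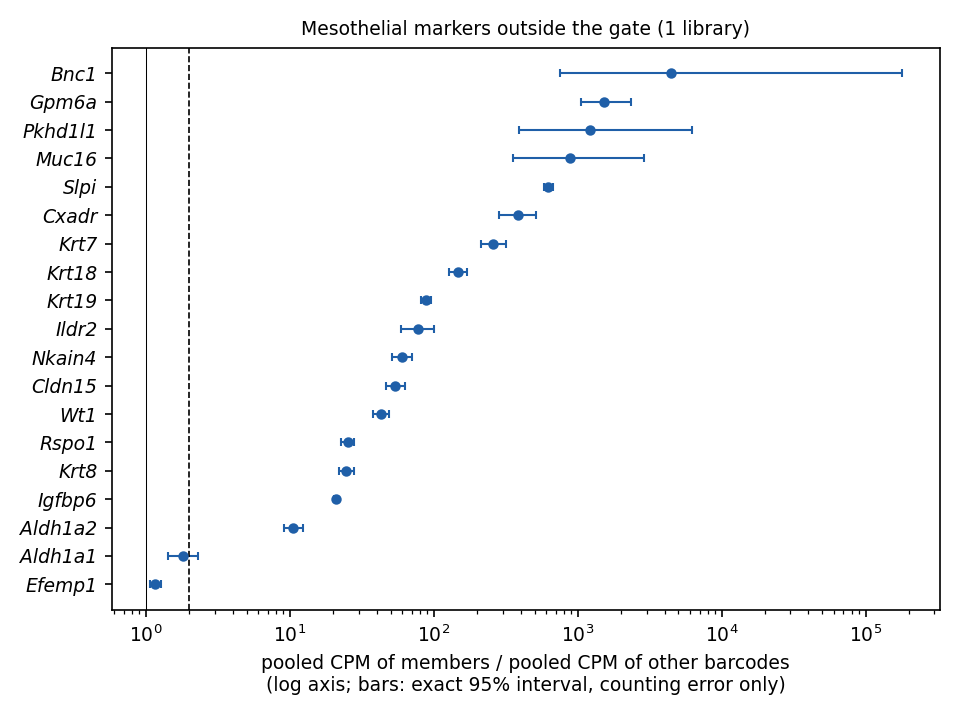
Ratio of pooled CPM of the 69 members to that of the 11307 other kept barcodes for the 19 compared mesothelial markers (log axis), with exact 95% intervals for counting error and the 2-fold bound dashed. Of these, 17 lie beyond the bound and Aldh1a1 and Efemp1 do not.

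Open chromatin at these genes was read from the deposited peak lists, where a promoter counted as open when a peak touched 1 kb on either side of a protein-coding start. Of the 24 gate and marker genes, 16 were open in MRISC, 15 in CD138, 13 in Myofibroblast and 12 in CD34 SP. Over 21853 genes the shares in the same order were 67.4%, 68.3%, 65.1% and 65.1%, so none of these counts stood above its background. Promoters open in 1 population alone were those of Krt18, Upk3b and Upk1b in CD138, Msln in Myofibroblast, Calb2 in CD34 SP and Bnc1 in MRISC. Apart from Bnc1 these rested on weak peaks, the best of each 34 to 133 bp wide. By the authors' score they lay above 2.08% (Upk3b), 14.2% (Calb2), 18.1% (Upk1b), 18.6% (Krt18) and 30.8% (Msln) of their lists. The Bnc1 promoter was open in MRISC with its best peak at chr7:81992110-81992605 (mm10), above 82.5% of that list by the authors' score. That of Wt1 was open in MRISC, with a peak at chr2:105126247-105126802 above 84.8% of its list, and in CD34 SP above 46.3%. The promoter of Rspo1, a Wnt agonist gene taken up below, was open in MRISC (chr4:124986198-124987298, above 91.0% of the list), CD34 SP and Myofibroblast. Gpm6a and Pkhd1l1 were open in none. The labels give no mesothelial population, so these peaks are those of other gp38+ cells, and any mesothelial cells among them cannot be told apart.

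The 250 bases before the RefSeq start of Bnc1 (GRCm38.p6, chr7:81992300-81992549, minus strand) and of Rspo1 (chr4:124986180-124986429, plus strand) are shown because the MRISC peak covers most or all of them. Both are printed 5′ to 3′ and capitals mark the bases inside the peak, which are 250 in Bnc1 and 232 in Rspo1.
Bnc1: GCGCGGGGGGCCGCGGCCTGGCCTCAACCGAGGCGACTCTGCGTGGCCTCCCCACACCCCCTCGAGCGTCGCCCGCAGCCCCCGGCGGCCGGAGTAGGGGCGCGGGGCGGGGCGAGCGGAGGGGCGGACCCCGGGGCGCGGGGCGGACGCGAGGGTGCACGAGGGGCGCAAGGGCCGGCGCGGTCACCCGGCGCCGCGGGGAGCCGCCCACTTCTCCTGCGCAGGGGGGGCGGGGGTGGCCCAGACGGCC
Rspo1: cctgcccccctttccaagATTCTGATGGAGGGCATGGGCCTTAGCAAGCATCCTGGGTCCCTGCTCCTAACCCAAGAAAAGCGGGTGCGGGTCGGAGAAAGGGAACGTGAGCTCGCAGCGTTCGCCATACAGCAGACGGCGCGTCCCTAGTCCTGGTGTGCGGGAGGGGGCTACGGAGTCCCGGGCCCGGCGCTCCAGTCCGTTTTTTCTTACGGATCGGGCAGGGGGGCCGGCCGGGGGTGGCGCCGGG

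The genes with the largest ratios outside the gate included several for junctions, polarity and the cell surface. After Bnc1 and Gpm6a came Prr15 (158 against 10 UMIs), Chst4, a sulfotransferase gene (155 against 10 UMIs), Pkhd1l1 and Crb2, a gene of apical polarity (24 against 2 UMIs, ratio 1157, interval 287 to 10099). Krt14, a keratin gene of stratified epithelium, had 36 against 3 UMIs and was seen in 14 members (ratio 1157, interval 366 to 5872). Egfl6 had the same sums, spread over 31 members. Cdh3, the gene of P-cadherin, was 988-fold higher and Lgals7, a galectin gene, 799-fold. The other genes named by the rule of size were Muc16, Crym, Wipf3, Barx2, Slpi, Rpp25, Vnn1, Ephb1, Rasgrp3, Folr1, Myrf, Rassf9, Gata5, Cxadr and Podxl, with ratios from 887 down to 378. The share of each gene's UMIs that came from members lay between 79.7% for Podxl and 97.9% for Bnc1.

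At the low end stood genes of other gut stroma. Robo1, a guidance receptor gene, had 0 UMIs against 2746 and was at least 9.49-fold lower at a floor of 3 UMIs over the members. The proteoglycan gene Sdc3 (3 UMIs, ratio 0.0832, interval 0.0171 to 0.243), Gucy1b1 (11.2-fold) and Sparcl1 (10.6-fold) followed. Slco2b1, Adgra2, Negr1, Adam19, Cped1, Lrrc17 and Igsf10 were 10.6-fold to 7.70-fold lower. The others' levels of Sparcl1 (114 CPM) and Negr1 (89.4 CPM) were near those of empty droplets (144 and 70.1 CPM). How much of the few UMIs left in the members is free RNA was not tested.

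**Figure D3:**
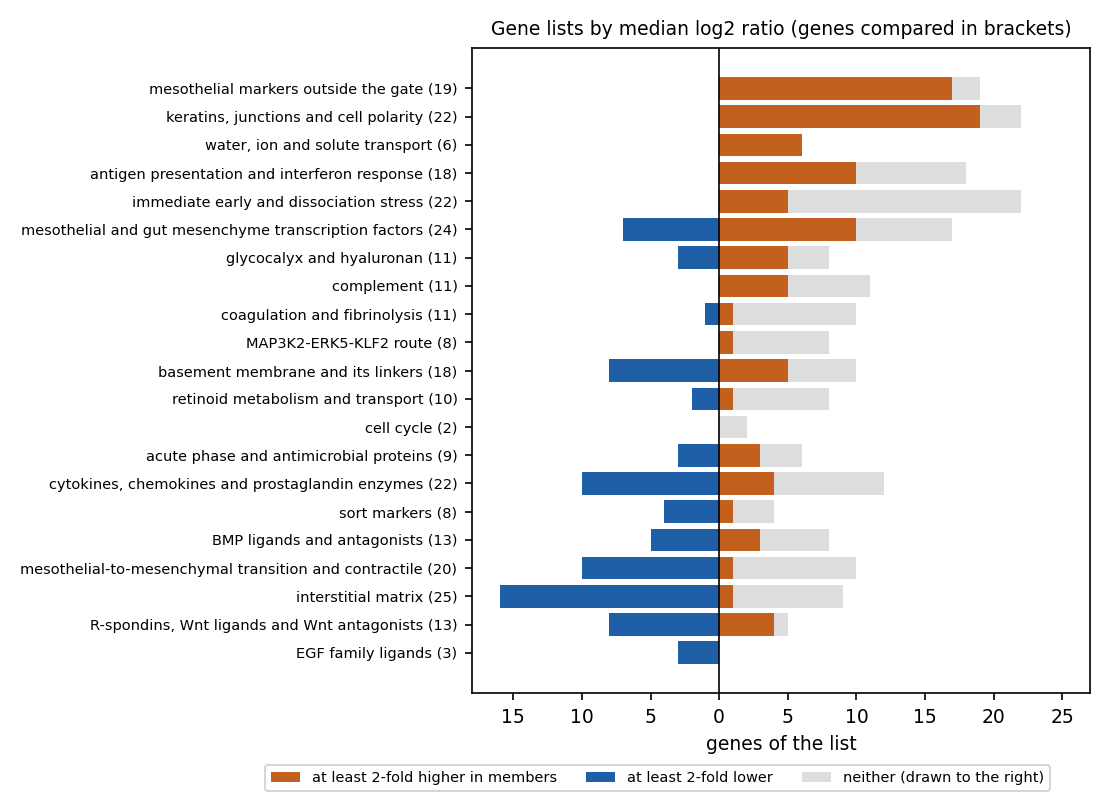
Number of genes of each list that were at least 2-fold higher (orange, right), at least 2-fold lower (blue, left) or neither (grey) in the members, with lists ordered by median log2 ratio and the genes compared in brackets. Keratins, junctions and cell polarity had 19 higher and 0 lower, interstitial matrix 1 higher and 16 lower.

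Of 30 genes of keratins, junctions and cell polarity, 22 were compared, 19 were higher and 0 lower, with a median log2 ratio of 5.86 against -0.04 over all genes compared. Besides those named, the cytolinker gene Ezr of microvilli was 35.9-fold higher, the tight junction genes Cgn and F11r 139-fold and 21.7-fold, and the desmosome gene Pkp2 86.8-fold. Cdh11, a mesenchymal cadherin gene, was also 2.83-fold higher, while Jup, Prkci and Tjp1 were neither. The list shares Krt7, Krt8, Krt18, Krt19, Cldn15 and Cxadr with the markers. All 6 compared genes of 15 for water, ion and solute transport were higher, with a median of 5.21. Among them Slc9a3r1, the scaffold of microvillar transporters, was at 683 against 11.8 CPM and found in 67 members. The zinc transporter gene Slc39a8 was 44.5-fold, the monocarboxylate transporter gene Slc16a1 31.0-fold, and the sodium pump gene Atp1b1 13.7-fold higher. The water channel gene Aqp1 had 17 UMIs, in 9 members.

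For the glycocalyx, the sugar-rich surface coat, 5 of 11 compared genes were higher and 3 lower, with a median log2 ratio of 0.10. The sialomucin gene Podxl was 378-fold higher, Prg4, which encodes the lubricant lubricin, 83.3-fold (19 against 22 UMIs, in 9 members), Gpc3 11.3-fold and Sdc4 6.02-fold. The syndecan genes Sdc1 and Sdc2 and the hyaluronan receptor gene Cd44 were lower, at ratios of 0.356, 0.398 and 0.358. Has1, a hyaluronan synthase gene, was even at 1.04.

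Transcription factor genes divided. Of 24 compared, 10 were higher and 7 lower, with a median log2 ratio of 0.35. Higher were Wt1 (42.9-fold), Gata6 (45.6-fold, in 46 members), Gata5 (386-fold, 20 against 5 UMIs), Hand1 (52.6-fold), Sox6 (27.7-fold), Bnc1, Hand2, Bnc2, Meis1 and Meis2. Among the lower genes Tcf21 stood at 248 against 1326 CPM. Foxf1 (ratio 0.218), Foxf2 (0.188), Zeb2 (0.154), Nkx2-3 (0.447), Ebf1 (0.402) and Twist2 (2 UMIs, 0.0890, interval 0.0108 to 0.322) were lower too. Foxf1 and Foxf2 are Hedgehog targets needed for gut smooth muscle and stroma, and Nkx2-3 patterns the mesenchyme of the midgut and hindgut. Nkx2-3 was detected after thinning in 34.3% of members and 58.7% of others, and empty droplets stood at 326 CPM against 154 CPM in the members.

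Signals to the epithelial stem cell niche were next. R-spondins are secreted proteins that amplify Wnt signalling at stem cells, and Rspo1 was at 566 CPM (514 to 623) in the members against 22.5 CPM (21.4 to 23.6), a ratio of 25.2. It was detected in 68 of 69 members and 9.76% of others, and after thinning in 79.1% and 5.47%. Single members ran from 0 to 1470 CPM with a median of 496, and 62 lay above the 95th percentile of the others. With 0.607% of the barcodes and 1.03% of all UMIs, the members held 20.7% of the Rspo1 UMIs. Empty droplets stood at 24.7 CPM. Rspo3 had 4 UMIs in the members and was at 5.34 against 22.8 CPM. Rspo2 had 0 UMIs in the members and 62 in the others, at or under the floor, and Rspo4 had 0 in both.

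The Wnt ligand gene Wnt5a, of the non-canonical branch, was 14.7-fold higher (409 against 27.8 CPM, in 65 members). Wnt9a was 13.0-fold higher on 23 UMIs, and Sfrp2, a gene of a secreted Wnt binding protein, 2.88-fold. Lower were Wnt4 (ratio 0.303), Wnt5b (0.229), Wnt2 (3 UMIs, 0.191, interval 0.0393 to 0.559), the inhibitor genes Sfrp1 (0.150), Sfrp4 (0.135), Dkk3 (0.361) and Frzb (0.432), and Rspo3 (0.234). In all, 4 of the 13 compared genes of this list were higher and 8 lower, with a median log2 ratio of -1.47. Rspo1 and Wnt5a were detected together in 64 members (92.8%) and in 2.32% of others, and after thinning in 52.2% and 0.596%.

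BMP signals oppose stem cell growth, and stromal cells make both ligands and antagonists. Bmp5 (ratio 0.106), Bmp4 (0.229) and Bmp7 (0.390) were lower in the members, and so was the antagonist gene Grem1 at 20.04 against 187 CPM. The antagonist gene Bmper (2.34-fold, 11 UMIs) was higher, and so, at the edge of the size rule, was Nbl1 (2.01-fold, 756 against 375 CPM, in 69 members), which was 1.60-fold higher than in the cluster most like the members. The list had 3 higher and 5 lower of 13 (1 to 5 and 4 to 7 over the alternatives), with a median log2 ratio of -0.91, and the ligand-sequestering gene Fstl1 (ratio 0.393) was the other lower one. The 3 compared EGF family ligands were lower: Ereg at 82.8 against 399 CPM, Nrg1 at 26.7 against 151 CPM, and Areg on 3 UMIs (ratio 0.107, interval 0.0221 to 0.314). For Grem1, Bmp5, Ereg and Nrg1 the empty droplets were at 165, 122, 375 and 153 CPM, so the members' levels lay below that of free RNA per UMI.

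**Figure D4:**
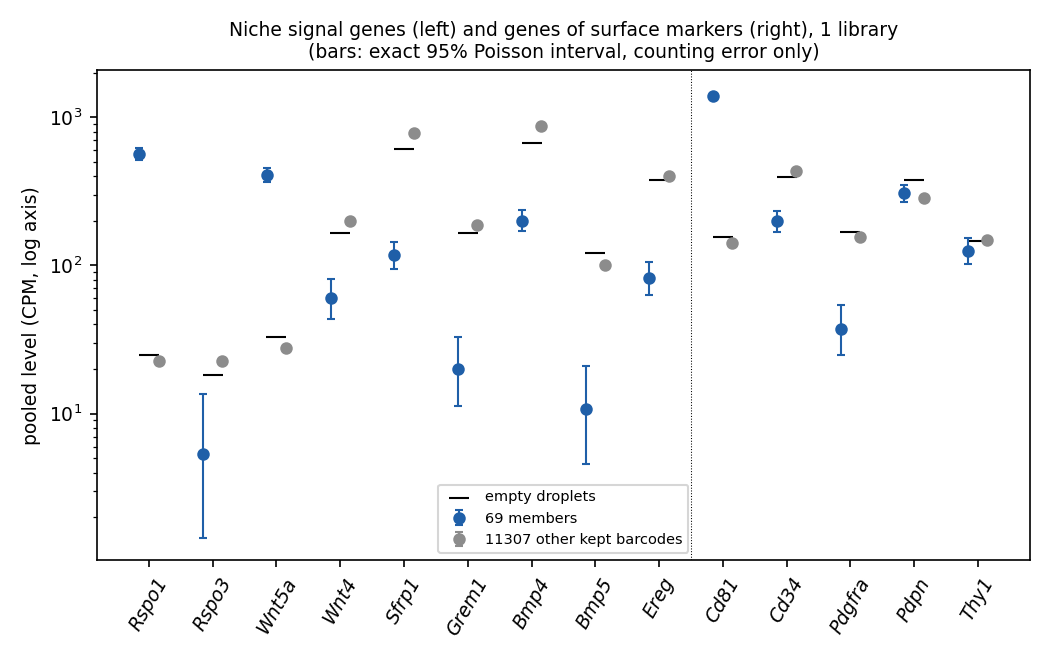
Pooled level (CPM, log axis) of niche signal genes (left of the dotted line) and genes of surface markers (right) in the 69 members (blue) and the 11307 other kept barcodes (grey), with exact 95% Poisson intervals, and in empty droplets (black dashes). Rspo1, Wnt5a and Cd81 are higher in the members and Grem1, Bmp5 and Ereg lower.

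Among the genes of surface markers 1 of 8 compared was higher and 4 were lower, with a median log2 ratio of -0.72. Cd81, the gene of a tetraspanin that the published work uses with CD34 to mark MRISC, was at 1379.8 CPM (1297 to 1467) against 142 CPM (140 to 145). All 69 members had Cd81 UMIs, from 243 to 3682 CPM, and 54 of them lay above the 95th percentile of the others. Cd34 was lower in the members, at 199 against 433 CPM, with empty droplets at 398 CPM. It was detected in 78.3% of members and 73.8% of others, and after thinning in 40.3% and 60.6%. How much of the members' Cd34 is free RNA was not tested. Both genes were detected in 78.3% of members (66.7% to 87.3%) and 22.3% of others, and after thinning in 38.8% and 14.5%. Pdpn (306 against 285 CPM) and Thy1 (126 against 150 CPM), the genes of the sort, were neither higher nor lower. Pdpn and Thy1 were detected together in 62.3% of members and 38.4% of others, but after thinning in 8.96% and 17.7%. Pdgfra (37.4 against 155 CPM), Pdgfrb (16.0 against 63.1 CPM) and Sdc1 (37.4 against 105 CPM) were lower, though Sdc1 was not lower than in the most similar cluster described next. Epcam had 8 UMIs, at 10.7 against 13.4 CPM.

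Among the clusters of at least 100 barcodes, the one whose pooled levels ranked most like the members' held 1351 barcodes with a median of 5594 UMIs (Spearman 0.765 over 8441 genes, against 0.703 to 0.726 for the other 6). This is a description over genes that share 1 library. It was also the cluster with the next level of Wt1 (84.1 CPM) and Cd81 (783 CPM) among these. Against it, 914 of 8295 genes (11%) were higher in the members and 684 (8.25%) lower, with 18 of the 20 markers higher. Bnc1, Muc16 and Pkhd1l1 had 0 UMIs there. Rspo1 was 10.5-fold higher in the members than in that cluster (566 against 54.0 CPM) and Wnt5a 10.4-fold. Cd81 (1.76-fold), Dcn (1.10-fold), Pdpn (1.25-fold) and Thy1 (ratio 0.829) were within the size rule. So were Sdc1 (1.57-fold, 37.4 against 23.8 CPM, interval 1.02 to 2.34) and Bmp4 (ratio 0.642), both called lower against all other barcodes. C3 was 2.23-fold and Igfbp6 4.61-fold higher in the members than in that cluster. Pi16, a gene of adventitial fibroblasts, was 46.4-fold lower in the members (16.0 against 744 CPM), Grem1 19.9-fold, Rspo3 16.0-fold and Sfrp1 4.91-fold.

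Of 11 compared complement genes 5 were higher and 0 lower, with a median log2 ratio of 0.05. C3, the central complement protein gene, was at 7862 against 781 CPM, in all 69 members, of which 68 lay above the 95th percentile of the others. Clu, the gene of the terminal-pathway inhibitor clusterin, was 36.3-fold higher, and C2 7.06-fold and Cfb 5.77-fold. C1s1, C1ra, C4b and Serping1 were between 0.743 and 1.04.

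Of 18 compared genes of antigen presentation and the interferon response, 10 were higher and 0 lower, with a median of 1.14. Cd74, the invariant chain of MHC class II, was at 2145 against 105 CPM and in 63 members, with 0 to 11476 CPM over single members. The class II genes H2-Eb1 (9.60-fold), H2-Aa (8.14-fold) and H2-Ab1 (7.16-fold) went with it. All 4 were detected in 37 members (53.6%) and 220 others (1.95%), and after thinning in 19.4% and 0.662%, while 5 members had none of them. In empty droplets Cd74 stood at 141 CPM. Whether free RNA or doublets add to the class II UMIs of the members was not tested. The class I genes H2-K1, H2-D1 and B2m, at ratios of 1.01, 0.684 and 0.794, were neither. Isg15 (4.53-fold), Ifit3 (3.91-fold), Ifit1 (3.44-fold), Gbp2 (2.54-fold), Irf1 (2.36-fold) and Irf7 (2.07-fold), which interferons induce, were higher.

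Cytokine, chemokine and prostaglandin genes leaned the other way, with 4 of 22 higher and 10 lower and a median log2 ratio of -0.56. Ptgis, the gene of prostacyclin synthase, was 17.8-fold higher at 581 CPM. Cxcl10 (2.69-fold), Il33 (2.18-fold) and, at the edge of the size rule, Cxcl1 (2.01-fold) were higher. Against the most similar cluster Il33 was lower in the members, at 80.1 against 235 CPM (ratio 0.342, interval 0.260 to 0.442). Lower than in all others were Cxcl12 (509 against 2537 CPM), Cxcl13, Ccl8, Ccl11, Cxcl14 and Cxcl9 (4 UMIs). Among acute phase and antimicrobial proteins 3 of 9 were higher, which were Slpi, Cd14 (14.5-fold) and Lcn2 (5.89-fold), and 3 were lower, with a median of -0.41. The lower ones were Hp, Pi16 and Ptx3 (2 UMIs, ratio 0.0492, interval 0.00595 to 0.178). Saa3 was at 0.874.

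The matrix of connective tissue was lower in the members. Of 25 interstitial matrix genes 16 were lower and 1 higher, with a median log2 ratio of -1.21. Col3a1 stood at 1969 against 4557 CPM, with members between 255 and 7380 CPM, and Col1a1 at 926 against 1886 CPM. Eln (ratio 0.177), Mmp2 (0.180), Bgn (0.210), Postn (0.211) and Fn1 (0.258) were among the lower. Dcn, the decorin gene, was the exception at 16735.5 against 8329 CPM, a ratio of 2.01 at the edge of the size rule, and 38 members lay above the 95th percentile of the others.

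Basement membrane genes were mixed, with 5 of 18 higher and 8 lower and a median log2 ratio of -0.20. Nephronectin (Npnt, 335-fold), the integrin gene Itga3 (41.9-fold), the laminin gene Lamc3 (29.5-fold), Col4a6 (4.36-fold) and Agrn (2.18-fold) were higher. Col4a1, Col4a2, Lama2, Lama4, Lamb1, Lamc1, Nid1 and Hspg2 were lower, with ratios from 0.225 for Nid1 to 0.442 for Hspg2. The list for mesothelial-to-mesenchymal transition and contraction had 10 of 20 lower and 1 higher (Tgfb3, 2.67-fold), with a median of -1.21. Acta2 (325 against 1302 CPM), Tagln, Myl9, Snai1, Snai2 and Zeb2 were among the lower, and Vim was even at 1.05. For Acta2 the pooled values hide a wide spread, as the median barcode stood at 128 CPM in the members and 153 CPM in the others. The cluster most like the members was at 170 CPM, below the members' pooled level, and another cluster of 1112 barcodes was at 9882 CPM.

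Genes that cell dissociation can induce were also checked. Of 22, 5 were higher and 0 lower, with a median of 0.45. Ier3 (8.34-fold), Egr3 (5.54-fold), Dnajb1 (5.45-fold), Atf3 (3.18-fold) and Btg2 (2.40-fold) were higher, and Fos was at 1.76. Of the MAP3K2-ERK5-KLF2 route, which the published work ties to Map3k2, 7 of 8 compared genes were neither, with a median of -0.11. Over all genes compared, 6631 of 8441 were neither. Map3k2 itself was at 34.7 against 36.6 CPM and Klf2 at 1214 against 891 CPM. Mapk7, at 10.7 against 21.1 CPM, was close to the lower bound of the size rule, and Mef2c was 2.19-fold higher on 32 UMIs. With all barcodes thinned, 2 genes of this list were lower.

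The members varied among themselves. After thinning, 357 genes had a mean of at least 1 UMI, and the variance divided by the mean had a median of 1.32, with 51 genes above 3. Malat1, a nuclear RNA, stood at 22.6, Slpi at 20.5, the fibroblast protease gene Adamdec1 at 20.03 and Cd74 at 9.35. Slpi ran from 0 to 96 thinned UMIs with a median of 13 and Cd74 from 0 to 32 with a median of 3. Adamdec1 was unlike these: 3 members held at least 10 thinned UMIs, up to 50, and the median was 1.

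**Figure D5:**
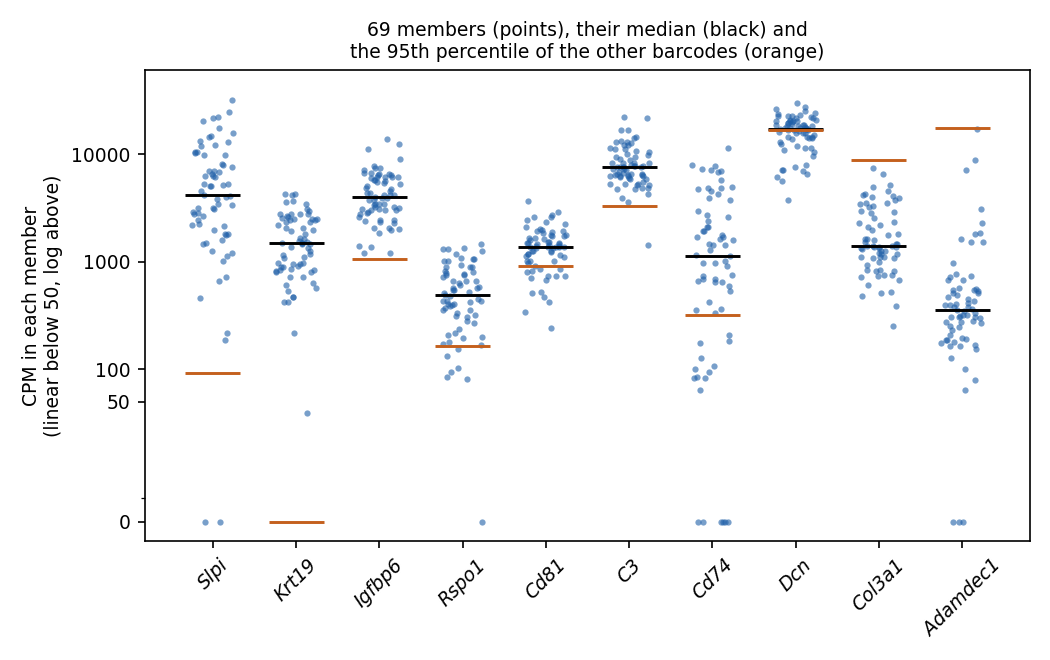
CPM in each of the 69 members (points; linear below 50, log above) for 10 genes, with the members' median in black and the 95th percentile of the other kept barcodes in orange. Igfbp6 lies above the orange line in every member, Col3a1 below it in every member, and 3 members stand apart for Adamdec1.

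The 26 deep members and the 43 shallower ones were set side by side. The markers outside the gate summed to 17926 CPM in the deep and 19142 CPM in the others, Slpi to 6945.6 and 6769.6 CPM, and Rspo1 to 528 and 607 CPM. Fibroblast markers without Dcn summed to 4035 and 4403 CPM. Adamdec1 (1616 against 541 CPM), Bgn (979 against 411 CPM) and Pdgfra (51.8 against 22.1 CPM) were higher in the deep members, and with any 1 deep member left out they stayed at or above 1105, 903 and 41.1 CPM. For Adamdec1, leaving out 1 cell cannot show whether the difference rests on a few cells. Deep members at 17067 and 8743 CPM had the most, and a shallower one had 7094 CPM. The next deep member was at 2306 CPM, and the median over all 69 members was 354 CPM. Leaving out more than 1 at a time was not done. Acta2 (464 against 177 CPM) and the summed myofibroblast and smooth muscle markers (1075 against 447 CPM) were higher in the deep members through 1 cell, the member with 7 of these markers. Without it the deep members stood at 137 and 324 CPM, below the shallower ones.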

How the data were processed

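Single-cell transcripts of 1 library and peak lists of 4 sorted populations were used. The members, gene lists and comparisons were chosen with earlier results of these data known. The deposited matrices hold raw UMI counts per gene and barcode, made by the authors with bcl2fastq, Cell Ranger and Seurat on mm10, per the submitters' processing notes; per the file headers the software version is 3.0.0. Each peak of the deposited lists has a score by the authors, used only to rank peaks within a list; the sources used here name neither the peak caller nor how 2 libraries were joined.

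Of 11484 filtered barcodes, 108 were left out (84 under 500 genes, 82 over 10% mitochondrial UMIs). Counts were summed over members and over other barcodes and set per 1000000 UMIs. Ratios carry exact binomial intervals, levels exact Poisson intervals and shares Clopper-Pearson intervals, all at 95%. A group at 0 was read as 3 UMIs over the group. Clusters came from scanpy 1.11.5 and leidenalg 0.10.2 (2000 variable genes without the gate genes, 30 components, 15 neighbours, resolution 0.5). Fibroblast barcodes held at least 4 of 6 markers. The ratio script was tested on simulated data. Named genes are the 25 largest ratios with a UMI in at least 20% of members and the 15 smallest with a UMI in at least 20% of others, without ribosomal, mitochondrial and unnamed gene models, plus list members; Adamdec1 and the genes of the nearest cluster were named after their values were seen. Some genes that these rules select are not reported here, though they stay in the counts. Promoters used GENCODE starts on GRCm38; the 2 promoter sequences are from RefSeq (GRCm38.p6) and were chosen after the peaks were seen. Alternatives varied gate, barcode and gene filters, scaling, depth, reference and free RNA.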

Additional observations from a re-analysis of the deposited data

How the results depend on the processing

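No paired analysis was possible because the single-cell group is 1 library, the peak lists carry no replicate columns, and no result comes from a test. The member count was 43 without members above the 95th percentile of UMIs and 69 as reported. With a mean CPM of at least 50, 273 genes were higher and 331 lower, and with no filter beyond 10 UMIs 2118 were higher and 1734 lower, against 867 and 943, since these filters change which genes are compared. Open promoters in CD138 numbered 9 with an overlap of at least 100 bp, against 15. The count of higher markers outside the gate ranged from 14 to 18 over the alternatives. None of the 40 genes named by size changed direction under any of 18 alternatives, and 1 of these, leaving out the member with 3 enteric glia markers, was added after seeing the data, as was leaving out single deep members in the comparison by depth. The median log2 ratio of the basement membrane list changed sign under several alternatives, among them 10% of UMIs subtracted as free RNA (0.57) and at least 3 gate genes required (0.48), against -0.20; those of the glycocalyx, complement, coagulation, retinoid and MAP3K2-ERK5-KLF2 lists also crossed 0 in at least 1 alternative. Depth limits genes with few UMIs: 1 UMI in the members is 1.34 CPM.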

Other observations

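Of the remaining lists, retinoid metabolism and transport had 1 of 10 compared genes higher (Aldh1a2) and 2 lower, Rbp4 (65.5 against 187 CPM) and Aldh1a3 (37.4 against 96.6 CPM), with a median log2 ratio of -0.28. Coagulation and fibrinolysis had 1 of 11 higher, the urokinase receptor gene Plaur (3.04-fold), and 1 lower, Serpine2 (ratio 0.297), with a median of -0.03. Of 15 cell cycle genes 2 reached the level for comparison, Pcna and Tyms, and neither was higher or lower (median -0.30). Outside the kept barcodes, 1 left-out barcode met the gate with 1538 UMIs and 10.2% mitochondrial UMIs, and 1 raw barcode outside the filtered matrix met it with 91 UMIs.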
